A study of Rattus norvegicus with 30 samples.

Results

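A pair of diets whose protein came from soybeans was compared in rat liver: tofu, and soy protein with isoflavones added to the level that tofu brings. All arrays with these labels were taken, 10 of the 30 arrays of the series, with 1 array per animal and 5 animals per diet. Every animal of the series was a male Sprague-Dawley rat, obtained at 4 weeks of age and given an ordinary unpurified diet for 5 days before the test diets, which were then fed for 14 days and each held 200 g/kg of protein. In the tofu diet (T20) all of that protein came from freeze-dried tofu. In the other diet (SI) it was soy protein, with a mixture of isoflavones, the plant oestrogens of soybeans. Further groups of 5 served as side references: soy protein without added isoflavone (S), 100 g/kg of protein from tofu with 100 g/kg from casein (T10), casein (C) and casein with isoflavone (CI). Contents of the diets other than protein and isoflavone were not analysed here, so any other part of tofu differs between T20 and SI together with the protein. Whole liver was measured, which mixes hepatocytes with blood vessel, immune and other cells.

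Soy protein is an extract, whereas tofu is the curd of soy milk, precipitated with salts and keeping oil and minerals of the bean. The liver is known from textbooks to adjust to the diet through several systems. It secretes the iron hormone hepcidin according to iron stores and inflammation, synthesises fat from carbohydrate, exports sterols into bile, and adjusts the enzymes that make, methylate and break down amino acids to the supply from the diet.

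On the 10 arrays the median intensity lay between 229.1 and 249.8 for T20 and between 216.9 and 239.7 for SI, and their number limits the precision. The ratio of the 3' to the 5' control probe set of GAPDH, a sign of RNA quality, was 1.04 to 1.23 for T20 and 1.06 to 1.19 for SI. It reached 1.58 in T10. Levels are log2 intensities of 1 probe set per gene, in which a difference of 1 is a 2-fold change. Differences are T20 minus SI ± SE, with 5 animals per diet. Adjusted p-values are from limma, fitted over all 30 arrays and adjusted over all 18625 tested probe sets, and a gene is said to have risen or fallen where that p lay under 0.05. The labels call the arrays of a diet biological replicates.

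Of 10699 tested genes, 431 differed between T20 and SI, which is 4.03%. With T20, 185 genes were higher (1.73%) and 246 were lower (2.3%). List counts given below stand beside these shares of all tested genes. Most differences were small: the median size among the 431 genes was 0.46, and 22 genes differed at least 2-fold, 8 of them higher and 14 lower with T20. The levels of the 2 diets did not overlap for 229 of the 431 genes, against 465 of all 10699 genes (4.35%). Counted as probe sets, 653 differed (3.51%), 304 higher (1.63%) and 349 lower (1.87%). That split rests on the scaling, since centring each array on its median gave 144 higher and 649 lower, and quantile normalization 309 and 487. The total also moved with single animals. It was 268 without T20 replicate 1, 382 without T20 replicate 2, 228 without SI replicate 2, 1026 without SI replicate 3, 432 without SI replicate 4 and 397 without SI replicate 5; the higher ones alone numbered 186 without T20 replicate 3. With only the T20 and SI arrays in the fit, 39 probe sets passed, 36 of them among the 653. Of the 62 passing genes that the naming rule picked, 13 passed in that fit, namely *Inmt*, *Oat*, *Acsl4*, *Rgs5*, *Hamp*, *Aldh1b1*, *Mat2a*, *Aldh1a1*, *Gfra3*, *Rhob*, *Aldh18a1*, *Aoc1* and *Agpat2*, and the others named below as having passed did not.

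**Figure D1:**
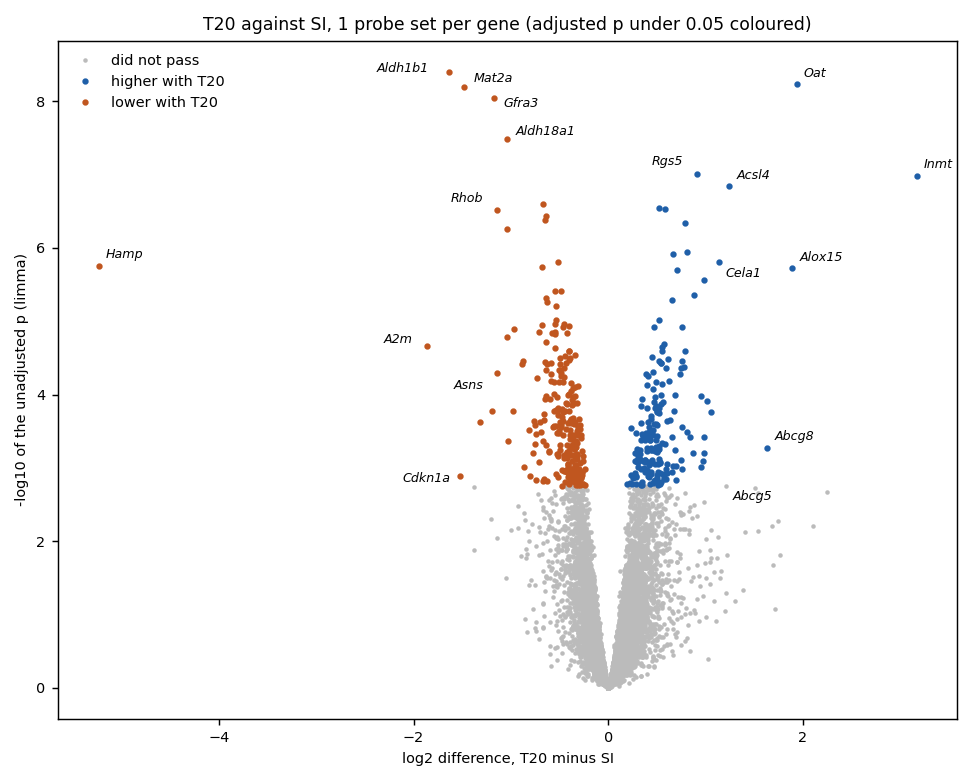
Each point is 1 gene, with the log2 difference T20 minus SI on the horizontal axis and the negative log10 of the unadjusted limma p on the vertical axis. Blue points are the 185 genes that were higher with T20 at an adjusted p under 0.05, orange points the 246 that were lower, and grey points did not pass. *Hamp* lies alone at -5.23 and *Inmt* at 3.17.

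The largest difference was in *Hamp*, which encodes hepcidin, the hormone that blocks iron release from gut and macrophages. Its promoter is shown because hepcidin is a textbook case of a gene with known inputs: bone morphogenetic protein (BMP) signals, which report iron, and STAT3, which reports inflammation. The 250 bases before the start of the gene, from RefSeq in build GRCr8 at chr1:95300272-95300521 on the minus strand, read 5' to 3' with a GGCGCC core and a TTCNNNGAA palindrome in capitals:
Hamp: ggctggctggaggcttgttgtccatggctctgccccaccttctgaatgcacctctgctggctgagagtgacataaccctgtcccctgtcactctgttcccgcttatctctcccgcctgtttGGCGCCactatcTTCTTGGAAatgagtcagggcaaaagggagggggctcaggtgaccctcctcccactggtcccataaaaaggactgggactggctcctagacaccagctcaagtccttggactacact
The GGCGCC match lies 129 to 124 bases before the start and the TTCNNNGAA match 117 to 109 bases before it, without overlap. Searched on both strands in windows from 250 bases before to 50 after the start, 11% of 33469 promoters hold GGCGCC, 8.87% hold TTCNNNGAA and 0.547% hold both. A match describes letters only; no binding was measured.

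The log2 level of *Hamp* in the 5 T20 livers was 7.72, 7.91, 7.41, 8.0 and 7.48. In the SI livers it was 9.35, 14.03, 13.28, 13.14 and 14.90. All T20 values lay below all SI values, near each other and close to the level of 7.388 below which probe sets were not tested, while SI replicate 1 stood far below the other SI livers. The difference was -5.23 ± 0.87 (adjusted p = 0.00114, limma), 37.6-fold lower with T20, and -6.13 without SI replicate 1. Livers of the C diet averaged between, at 10.08 ± 1.29 (SD, n = 5). Those of CI, casein with isoflavone, averaged 12.20 ± 2.27 (SD, n = 5), nearer to SI than to T20.

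Of 15 tested genes of iron handling, *Hamp* fell and 1 rose, *Cp*, which encodes ceruloplasmin, the copper protein that oxidises iron for transport. Its level was 13.79 ± 0.39 with T20 and 13.09 ± 0.18 with SI (SD, n = 5 each), a difference of 0.70 ± 0.19 (adjusted p = 0.0357, limma). Other *Cp* probe sets gave 0.57 and 0.01 and did not pass, and the call was lost without any 1 of 6 arrays, namely T20 replicates 1, 2 and 5 and SI replicates 2, 4 and 5 (adjusted p up to 0.106). *Tfrc*, the transferrin receptor through which cells take up iron, differed by 1.53 ± 0.53 and missed the threshold (adjusted p = 0.0992, limma). Its T20 values were 14.05, 13.74, 13.52, 12.16 and 11.31 and its SI values 13.30, 11.07, 11.39, 11.30 and 10.05, which overlap. The genes of BMP signalling in the list did not pass: *Bmp6*, the iron-regulated ligand, had a difference of 0.22, *Id1*, a target of the pathway, 0.21, *Smad7*, its inhibitor, -0.34, and *Hjv*, the co-receptor hemojuvelin, 0.06. The median of the iron list was 0.07 (-0.003 under median centring), beside 0.02 for all tested genes.

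*A2m* encodes alpha-2-macroglobulin, a protease inhibitor that in rats is a strong acute phase protein. Its log2 level was 10.21, 10.62, 8.80, 10.94 and 9.97 in the T20 livers and 11.75, 11.61, 11.41, 12.70 and 12.40 in the SI livers. The 2 diets did not overlap, and the difference was -1.87 ± 0.37 (adjusted p = 0.00568, limma, and 0.0621 with only T20 and SI in the fit), 3.65-fold. Casein livers averaged lower than both, at 8.49 ± 0.67 (SD, n = 5). Among 25 tested genes that rise in inflammation, *A2m* was the one that fell, and *Cp* and *Cd14* rose. *Cd14*, a receptor part for bacterial lipopolysaccharide, had a difference of 0.76 that was lost without any 1 of 6 arrays, T20 replicates 1, 3 and 5 and SI replicates 2, 4 and 5 (adjusted p up to 0.11). The list's median was -0.07 and turned positive under quantile normalization (0.036) and under scaling to equal median and spread (0.135).

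Enzymes of sulphur amino acid and one-carbon metabolism differed in both directions: of 29 tested, 3 were higher and 3 lower with T20. The lower count stayed at 3 under each scaling, whereas 6 were higher under equal median and spread, 5 under quantile normalization and 2 under median centring. *Mat2a*, the form of methionine adenosyltransferase that dividing and extrahepatic cells use to make S-adenosylmethionine, had levels of 10.38, 11.07, 10.57, 10.97 and 10.10 with T20 and 11.90, 12.43, 12.19, 12.17 and 11.78 with SI. Every T20 liver was below every SI liver, and the difference was -1.48 ± 0.18 (adjusted p = 3.96e-05, limma), with -1.41 on a second probe set. *Mat1a*, the form of the mature liver, differed by 0.28 without passing (adjusted p = 0.405, limma). *Mat2b*, a regulatory subunit of the enzyme, was higher by 0.24. The polyamine enzymes *Odc1* (ornithine decarboxylase) and *Srm* (spermidine synthase) were lower, by -0.64 ± 0.13 (adjusted p = 0.00527) and -0.52 ± 0.13 (adjusted p = 0.0295, both limma). *Srm* and *Mat2b* lie outside the naming rule and were named after their values were seen. *Cbs*, which starts transsulfuration from homocysteine to cysteine, was higher by 0.58 ± 0.15 (adjusted p = 0.0244, limma); this call was lost without any 1 of T20 replicates 1, 3 and 5 or SI replicates 1, 2 and 4 (adjusted p up to 0.0799).

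*Inmt*, an N-methyltransferase that uses S-adenosylmethionine to methylate amines, showed the largest rise of all genes. Its levels were 13.09, 10.97, 11.60, 10.26 and 11.61 in the T20 livers and 7.88, 7.85, 9.16, 7.99 and 8.82 in the SI livers. The groups stood more than 1 log2 unit apart at their nearest values. The difference was 3.17 ± 0.45 (adjusted p = 0.00024, limma), 8.97-fold. Casein livers averaged between at 9.43 ± 0.79 (SD, n = 5).

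Genes that answer a shortage of amino acids through the transcription factor ATF4 were lower or did not pass. Of 34 tested, 4 fell, 0 rose and 27 had a negative difference, against 4960 of all 10699 genes. The list median was -0.15 beside 0.02 for all genes, -0.074 under equal median and spread and -0.224 under median centring. *Asns*, asparagine synthetase, had levels of 7.17, 8.03, 7.84, 8.06 and 7.90 with T20 and 8.40, 8.75, 8.46, 9.27 and 9.83 with SI, without overlap. The difference was -1.14 ± 0.24 (adjusted p = 0.00832, limma). The other calls each depended on single arrays: *Psat1*, a serine synthesis enzyme, at -0.81 ± 0.23, *Nupr1*, a stress-induced chromatin protein, at -0.67 ± 0.17, and *Sesn2*, a leucine sensor, at -0.66 ± 0.19. Psat1 was lost without any 1 of T20 replicates 1, 2, 4 and 5 or SI replicates 4 and 5, Nupr1 without T20 replicates 1 or 3 or SI replicates 2, 4 or 5, and Sesn2 without T20 replicates 1, 4 or 5 or SI replicates 1 to 4. The adjusted p then reached 0.133, 0.0689 and 0.121. A second *Sesn2* probe set gave -0.74 and passed with all arrays in the fit (adjusted p = 0.0183, limma). *Atf4* itself had a difference of -0.26 (adjusted p = 0.491, limma).

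ATF4 and C/EBP proteins bind a composite element, of which TGATGNAA is a core. Among 34 genes of this list with a promoter window, tested or not, 10 hold it on either strand in any of their windows (29.4%). Of all windows, each counted singly, 3.98% hold it, so the shares are of genes and of windows and do not compare directly. The list was built of known ATF4 targets. Of the 4 genes that fell, *Nupr1* holds it, and in the windows of *Asns*, *Psat1* and *Sesn2* these letters do not occur. The 250 bases before the start of *Nupr1*, at chr1:190645902-190646151 on the minus strand of GRCr8, carry it as TTGCATCA, 55 to 48 bases before the start, in capitals:
Nupr1: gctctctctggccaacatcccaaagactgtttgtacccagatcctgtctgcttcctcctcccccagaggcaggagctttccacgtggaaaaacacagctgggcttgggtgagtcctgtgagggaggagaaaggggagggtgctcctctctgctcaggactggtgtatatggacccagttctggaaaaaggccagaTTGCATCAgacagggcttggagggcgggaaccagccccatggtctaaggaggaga

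Among genes of amino acid breakdown 1 rose, *Oat*, ornithine aminotransferase of the hepatocytes around the central vein. Its levels were 14.77, 14.09, 13.96, 13.68 and 14.58 with T20 and 12.56, 12.27, 11.99, 12.03 and 12.55 with SI. No T20 liver came within 1 log2 unit of an SI liver. The difference was 1.93 ± 0.23 (adjusted p = 3.96e-05, limma), 3.82-fold, and casein livers were between at 13.13 ± 0.19 (SD, n = 5). *Aldh18a1*, which makes the precursor of proline and ornithine from glutamate, fell by 1.04 ± 0.14 (adjusted p = 0.000121, limma). Of 43 tested genes of amino acid catabolism and the urea cycle, *Oat* rose and *Sdsl*, a serine dehydratase relative (-0.53 ± 0.10), and *Bckdk*, the kinase that restrains branched-chain keto acid breakdown (-0.65 ± 0.15), fell. Over all tested genes 1.73% were higher and 2.3% lower with T20, and the list counts are not read as a result about amino acid breakdown. *Bckdk* was lost without SI replicate 2 (adjusted p = 0.0539, limma). *Sds*, serine dehydratase, differed by 2.24 ± 0.66 without passing (adjusted p = 0.055, limma). *Oat* is also 1 of 10 tested pericentral markers and the one that passed, and *Sdsl* the one of 11 periportal markers.

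*Abcg5* and *Abcg8* encode the partner subunits of the transporter that exports cholesterol and plant sterols into bile. The genes lie head to head, and RefSeq leaves 205 bases between their starts on chromosome 6, *Abcg8* on the minus and *Abcg5* on the plus strand. The stretch between both starts, chr6:15717731-15717935 in GRCr8 on the plus strand, is shown because both genes start from it; capitals mark AGATAA, the box bound by GATA factors, which occurs 2 times in this stretch and in 11.6% of all windows on either strand:
Abcg5-Abcg8: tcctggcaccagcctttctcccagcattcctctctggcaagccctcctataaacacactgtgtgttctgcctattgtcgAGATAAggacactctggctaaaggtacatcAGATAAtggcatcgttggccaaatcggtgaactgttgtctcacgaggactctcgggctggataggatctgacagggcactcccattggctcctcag
The first match lies 126 to 121 bases and the second 96 to 91 bases before the *Abcg5* start.

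The log2 level of *Abcg8* was 9.72, 8.23, 9.69, 9.73 and 10.27 with T20 and 7.13, 7.55, 8.25, 8.0 and 8.56 with SI. T20 replicate 2 lay within the range of the SI livers and the other T20 livers lay above it. The difference was 1.63 ± 0.42 (adjusted p = 0.0261, limma). The call was lost without any 1 of T20 replicates 1, 3 and 5 or SI replicates 1 and 2 (adjusted p up to 0.0809). *Abcg5* measured 10.46, 9.68, 10.74, 10.75 and 11.16 with T20 and 9.11, 9.10, 9.48, 9.40 and 9.65 with SI. Its groups did not overlap, though the highest SI and the lowest T20 liver nearly met, and the difference was 1.21 ± 0.35, at an adjusted p of 0.0502 (limma) that missed the threshold. Without T20 replicate 2, the lowest T20 liver for both genes, *Abcg5* passed (adjusted p = 0.0326, limma). Both SI means exceeded the casein means, which were 6.82 for *Abcg8* and 8.47 for *Abcg5*.

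Of 23 tested genes of sterol efflux and lipoproteins, *Abcg8* rose and *Mttp* fell. *Mttp*, the microsomal protein that loads fat onto apolipoprotein B, had a difference of -0.33 ± 0.08 (adjusted p = 0.0254, limma). That call was lost without any 1 of T20 replicates 1, 2 and 5 or SI replicates 1 and 2 (adjusted p up to 0.0856), and under equal median and spread (adjusted p = 0.26).

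Bile acid genes rose or did not pass: 3 of 20 tested rose and 0 fell, beside 1.73% and 2.3% of all tested genes. The list median was 0.29, while median centring gave 2 higher and 1 lower. *Baat*, which couples bile acids to taurine or glycine, was higher by 0.52 ± 0.10 (adjusted p = 0.00374, limma). *Akr1c14*, an aldo-keto reductase of steroids, was higher by 0.55 ± 0.12 (adjusted p = 0.0098, limma). *Slco1b2*, an uptake carrier for organic anions, was higher by 0.53 ± 0.14, and this was lost without any 1 of T20 replicates 1, 3 and 5 or SI replicates 1 and 2 (adjusted p up to 0.122), under quantile normalization (adjusted p = 0.084) and under median centring (adjusted p = 0.0623). A second *Slco1b2* probe set gave 0.63 and passed with all arrays in the fit (adjusted p = 0.0149, limma). *Cyp7a1*, the hydroxylase that opens bile acid synthesis, ranged from 9.02 to 13.27 with T20 and from 9.70 to 10.46 with SI. Its difference of 0.94 ± 0.59 did not pass, with a 95% interval from -0.27 to 2.14. In cholesterol synthesis and uptake, 1 of 20 tested genes rose, *Ebp*, a sterol isomerase, by 0.55 ± 0.11 (adjusted p = 0.00569, limma), and 0 fell.

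Genes of fatty acid and triglyceride synthesis were lower or did not pass: 5 of 26 tested fell and 0 rose, beside 2.3% and 1.73% of all tested genes. A negative difference was found in 19, against 4960 of all 10699 genes, and the median was -0.27, or -0.144 under equal median and spread. Those that fell were *Agpat2*, an acyltransferase of triglyceride assembly (-0.63 ± 0.11, adjusted p = 0.00244), *Tkt*, transketolase (-0.71 ± 0.13, adjusted p = 0.00428), and *Pklr*, liver pyruvate kinase (-0.64 ± 0.14, adjusted p = 0.0121, all limma). Also lower were *Pgd*, which supplies NADPH (-0.52 ± 0.12, adjusted p = 0.0149), and *Acaca*, acetyl-CoA carboxylase (-0.74 ± 0.18, adjusted p = 0.0209, both limma). *Agpat2* levels were 11.77, 11.90, 12.02, 11.75 and 11.59 with T20 and 12.40, 12.62, 12.20, 12.38 and 12.56 with SI. The T20 livers were all below the SI livers. The calls of *Pklr* and *Pgd* were lost without SI replicate 2 (adjusted p = 0.0543 and 0.0653), that of *Pgd* also under equal median and spread (adjusted p = 0.0755), and that of *Acaca* without any 1 of T20 replicates 1 and 5 or SI replicates 1 and 2 (adjusted p up to 0.0892). A second *Acaca* probe set gave -0.60 and did not pass (adjusted p = 0.0772, limma). For *Pklr* a second probe set gave -0.66 and passed with all arrays in the fit (adjusted p = 0.0226, limma). With only the compared diets in the fit, 1 of the 26 passed.

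The best known genes of the pathway varied among the SI livers. *Fasn*, fatty acid synthase, measured 11.92, 11.99, 12.14, 11.18 and 11.12 with T20 and 13.89, 14.08, 12.34, 11.43 and 11.86 with SI. SI replicates 1 and 2 stood above all other livers of the comparison. The difference of -1.05 ± 0.47 did not pass (adjusted p = 0.212, limma). *Scd*, stearoyl-CoA desaturase, had a difference of -0.86 ± 0.28 (adjusted p = 0.0829, limma), which passed without T20 replicate 4 (adjusted p = 0.0426, limma). *Acly*, ATP citrate lyase, had -0.93 ± 0.29 (adjusted p = 0.0696, limma). *Srebf1*, the lipogenic transcription factor, had -0.27 ± 0.36 with a 95% interval from -1.01 to 0.48.

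*Pnpla3*, a lipid droplet protein, and *Me1*, malic enzyme, averaged well below casein with both soybean diets, and T20 and SI overlapped. *Pnpla3* averaged 8.11 ± 0.80 with T20, 8.09 ± 0.73 with SI and 12.08 ± 0.38 with C (SD, n = 5 each). Its difference between T20 and SI was 0.03 ± 0.47, with a 95% interval from -0.95 to 1.00, so changes of up to about 2-fold either way remain within the interval. *Me1* averaged 10.94 with T20, 10.68 with SI and 12.70 with C, and its interval ran from -0.12 to 0.64. *Fmo1*, a flavin monooxygenase, averaged 12.67 with both diets and 10.63 with C, with an interval from -0.36 to 0.37.

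*Acsl4*, an acyl-CoA synthetase that prefers arachidonic acid, and *Alox15*, a lipoxygenase that oxygenates such fatty acids, both rose. *Acsl4* levels were 13.11, 12.89, 13.11, 12.45 and 13.02 with T20 and 11.83, 11.88, 11.36, 11.70 and 11.62 with SI. The difference was 1.24 ± 0.18 (adjusted p = 0.000266, limma), and the T20 mean lay near the casein mean of 13.21. *Alox15* levels were 11.09, 9.54, 11.33, 10.58 and 12.18 with T20 and 9.15, 8.80, 9.43, 8.87 and 9.04 with SI. The groups did not overlap, though T20 replicate 2 came close to the highest SI liver, and the difference was 1.89 ± 0.31 (adjusted p = 0.00114, limma, and 0.0621 with only T20 and SI in the fit). Of 30 tested genes of fatty acid oxidation, 2 fell and 0 rose. One was *Acaa2*, a mitochondrial thiolase (-0.51 ± 0.08, adjusted p = 0.00112, limma), whose second probe set gave 0.34 (adjusted p = 0.129) and whose call was lost under equal median and spread (adjusted p = 0.132). *Cpt1a*, which admits fatty acids to mitochondria, had 0.50 ± 0.29, with an interval from -0.09 to 1.10.

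*Aldh1b1*, a mitochondrial aldehyde dehydrogenase, had levels of 10.20, 10.75, 10.16, 10.97 and 10.32 with T20 and 12.00, 12.57, 11.84, 12.43 and 11.75 with SI. Its groups were separate, and the difference was -1.64 ± 0.19 (adjusted p = 3.96e-05, limma). *Aldh1a1*, an aldehyde dehydrogenase that makes retinoic acid, had a difference of -1.32 ± 0.31 (adjusted p = 0.0173, limma), lost without T20 replicate 1 or SI replicates 2 or 5 (adjusted p up to 0.0559). Further genes among the 15 most lower were *Gfra3*, a receptor of the GDNF family (-1.17 ± 0.15, adjusted p = 4.23e-05), *Rhob*, a small GTPase (-1.14 ± 0.17, adjusted p = 0.000374), *Prss8*, a membrane serine protease (-1.04 ± 0.16, adjusted p = 0.000548), and *Ugt2b34l1*, named as a glucuronosyltransferase (-1.04 ± 0.20, adjusted p = 0.00462, all limma). The T20 and SI values of these 4 genes did not overlap. *Abca4*, a retinoid transporter known from the eye, had a difference of -1.19 ± 0.27 (adjusted p = 0.015, limma), with overlapping values and a call lost without SI replicate 5 (adjusted p = 0.0512). *Cyfip2*, a regulator of actin, had -1.03 ± 0.26, lost without any 1 of T20 replicates 1 and 2 or SI replicates 4 and 5 (adjusted p up to 0.0834). A second *Cyfip2* probe set gave -0.59 and passed with all arrays in the fit (adjusted p = 0.018, limma). *Aoc1*, the diamine oxidase that degrades histamine, had -0.98 ± 0.22, lost without SI replicate 2 (adjusted p = 0.0556).

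The 15 most higher genes held further members of varied roles. *Rnase4*, a secreted ribonuclease, measured 14.47 to 15.25 with T20 and 13.47 to 14.42 with SI, a difference of 0.98 ± 0.17 (adjusted p = 0.00156, limma). *Nrtn*, neurturin, a growth factor of the GDNF family, measured 8.01 to 8.40 with T20 and 6.52 to 7.89 with SI, a difference of 0.96 ± 0.21 (adjusted p = 0.0121, limma). Both passed whichever single array was left out. The members named next each depended on single arrays. *Mtmr7*, a myotubularin-related phosphatase (1.05 ± 0.24), was lost without SI replicate 5 (adjusted p = 0.0535), and *Il33*, an alarm cytokine (1.01 ± 0.23), without T20 replicate 1 (adjusted p = 0.0514). A second *Il33* probe set gave 1.18 and passed with all arrays in the fit (adjusted p = 0.00207, limma). *Rgs4*, a regulator of G protein signals (0.98 ± 0.25), was lost without any 1 of T20 replicates 3 and 5 or SI replicates 2 and 4 (adjusted p up to 0.121). *Cyp2a1*, a steroid hydroxylase (0.98 ± 0.24), was lost without any 1 of replicates 1 and 2 of either diet (adjusted p up to 0.0764). *Slc16a10*, a carrier of aromatic amino acids and thyroid hormones (0.97 ± 0.26), was lost without any 1 of T20 replicates 1 and 5 or SI replicates 1, 2 and 5 (adjusted p up to 0.0945). *Mgarp*, a mitochondrial protein (0.95 ± 0.26), was lost without any 1 of T20 replicates 1, 2 and 5 or SI replicates 2, 4 and 5 (adjusted p up to 0.127).

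Genes of the cell cycle were lower or did not pass: 4 of 29 tested fell, 0 rose, 27 had a negative difference, against 4960 of all 10699 genes, and the median was -0.39. *Ccnd1*, cyclin D1, which drives entry into the cycle, had levels of 10.27, 11.10, 10.52, 10.82 and 10.28 with T20 and 11.20, 12.06, 11.35, 11.67 and 11.52 with SI, without overlap. The difference was -0.96 ± 0.18 (adjusted p = 0.00411, limma). Of 2 further probe sets 1 passed (-1.0) and 1 did not (-0.72, adjusted p = 0.0581). *Cdkn1a*, p21, which arrests the cycle, was also lower, at -1.52 ± 0.43 (adjusted p = 0.0433, limma), so the members that fell do not all act in the same direction. Its call was lost without any 1 of T20 replicates 2, 4 and 5 or SI replicates 1, 2, 4 and 5 (adjusted p up to 0.113), and a second probe set gave -1.35 (adjusted p = 0.0758). The call of *Tk1*, thymidine kinase (-0.45), was lost without any 1 of T20 replicates 1, 2 and 5 or SI replicates 2 and 4 (adjusted p up to 0.103). That of *Mcm7*, a replication helicase subunit (-0.42), was lost without any 1 array other than T20 replicate 3 and SI replicate 3 (adjusted p up to 0.119). A second *Tk1* probe set gave -0.55 and passed with all arrays in the fit (adjusted p = 0.0328, limma). The mitotic genes *Ccnb1* (-0.85, adjusted p = 0.155), *Cdk1* (-0.44, adjusted p = 0.479) and *Top2a* (-0.11, adjusted p = 0.843, all limma) did not pass. Of 25 tested genes of endoplasmic reticulum and heat stress, 4 fell and 0 rose, among them the chaperones *Hyou1* (-0.59 ± 0.12, adjusted p = 0.00721, with -0.28 and an adjusted p of 0.313 on a second probe set) and *Hspd1* (-0.47 ± 0.09, adjusted p = 0.004, both limma). Under equal median and spread 1 of the 25 passed, and *Hspd1* did not (adjusted p = 0.203).

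**Figure D2:**
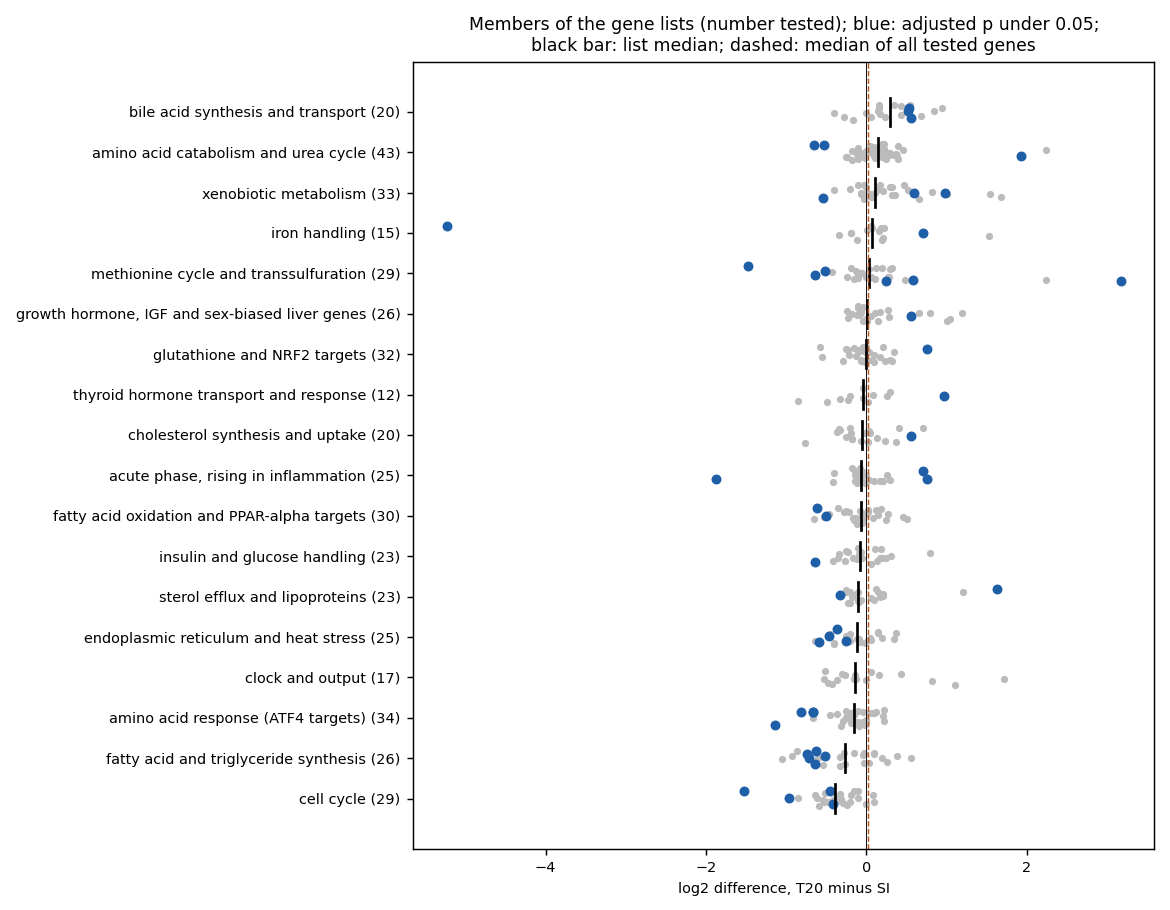
Each point is 1 tested gene of a list, placed by its log2 difference T20 minus SI, with the number tested in brackets. Blue points passed at an adjusted p under 0.05, the black bar is the list median and the dashed line the median of all tested genes, 0.02; the cell cycle list has the lowest median, -0.39, and the bile acid list the highest, 0.29.

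With only T20 and SI in the fit, 0 genes of the ATF4, cell cycle, stress and bile acid lists passed by limma, and without the filter on dim probe sets 2 genes of each of these lists did. Among the other lists, 2 of 33 xenobiotic genes rose and 1 fell, 1 of 32 glutathione and NRF2 genes rose (*Gsta4*, a glutathione transferase, 0.76 ± 0.15, adjusted p = 0.00715, limma), 1 of 12 thyroid hormone genes rose, 1 of 26 growth hormone and sex-biased genes rose and 1 of 23 insulin and glucose genes fell. Over all tested genes 1.73% rose and 2.3% fell, and these calls are not read as results about their lists. Of 17 clock genes 0 passed by limma, with 2 at an unadjusted p under 0.05, as had 20.1% of all tested genes. From the fixed set, *Serpina7*, the thyroxine carrier (-0.85 ± 0.53), *Onecut1*, a hepatocyte transcription factor (-0.24 ± 0.89), and *Prlr*, the prolactin receptor (0.65 ± 0.33), did not pass, with intervals from -1.93 to 0.22, -2.06 to 1.59 and -0.03 to 1.33.

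Markers of the cell types of the liver were set beside these results; in whole liver, fewer cells of a type and less RNA per cell cannot be told apart. Of 10 hepatocyte markers 0 passed, and the summed linear level of that list was 402600 to 479800 with T20 and 426600 to 536100 with SI. The 11 Kupffer cell and macrophage markers all had positive differences, 0.12 to 0.45, of which 0 passed by limma and 4 had an unadjusted p under 0.05; their sums, 34190 to 47450 and 27930 to 43460, overlapped. Of 11 genes listed here as endothelial markers 2 rose, and the sums of the list, 19050 to 21630 and 16990 to 18270, did not overlap. The first was *Rgs5*, a regulator of G protein signals in vessel walls and so not particular to endothelium. Its levels were 8.80, 8.25, 8.69, 8.63 and 8.68 with T20 and 7.66, 7.44, 7.99, 7.78 and 7.65 with SI, a difference of 0.91 ± 0.13 (adjusted p = 0.00024, limma). The second was *Fcgr2b*, an Fc receptor (0.52 ± 0.12, adjusted p = 0.0152, limma), lost without T20 replicate 1 or SI replicates 2 or 5 (adjusted p up to 0.0623). Without these 2 genes the endothelial sums overlapped, 15070 to 17650 and 14230 to 15760. *Cela1*, an elastase listed as a pancreas marker, rose by 1.13 ± 0.19 (adjusted p = 0.00112, limma), with levels of 10.94 to 12.46 with T20 and 10.12 to 10.81 with SI. The other 11 genes of that list of intestine, kidney and pancreas had overlapping sums, 1248 to 1901 and 1377 to 1743. No marker gene was at 0 in any of the 10 arrays. The part of cell makeup in the gene results was not tested.

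**Figure D3:**
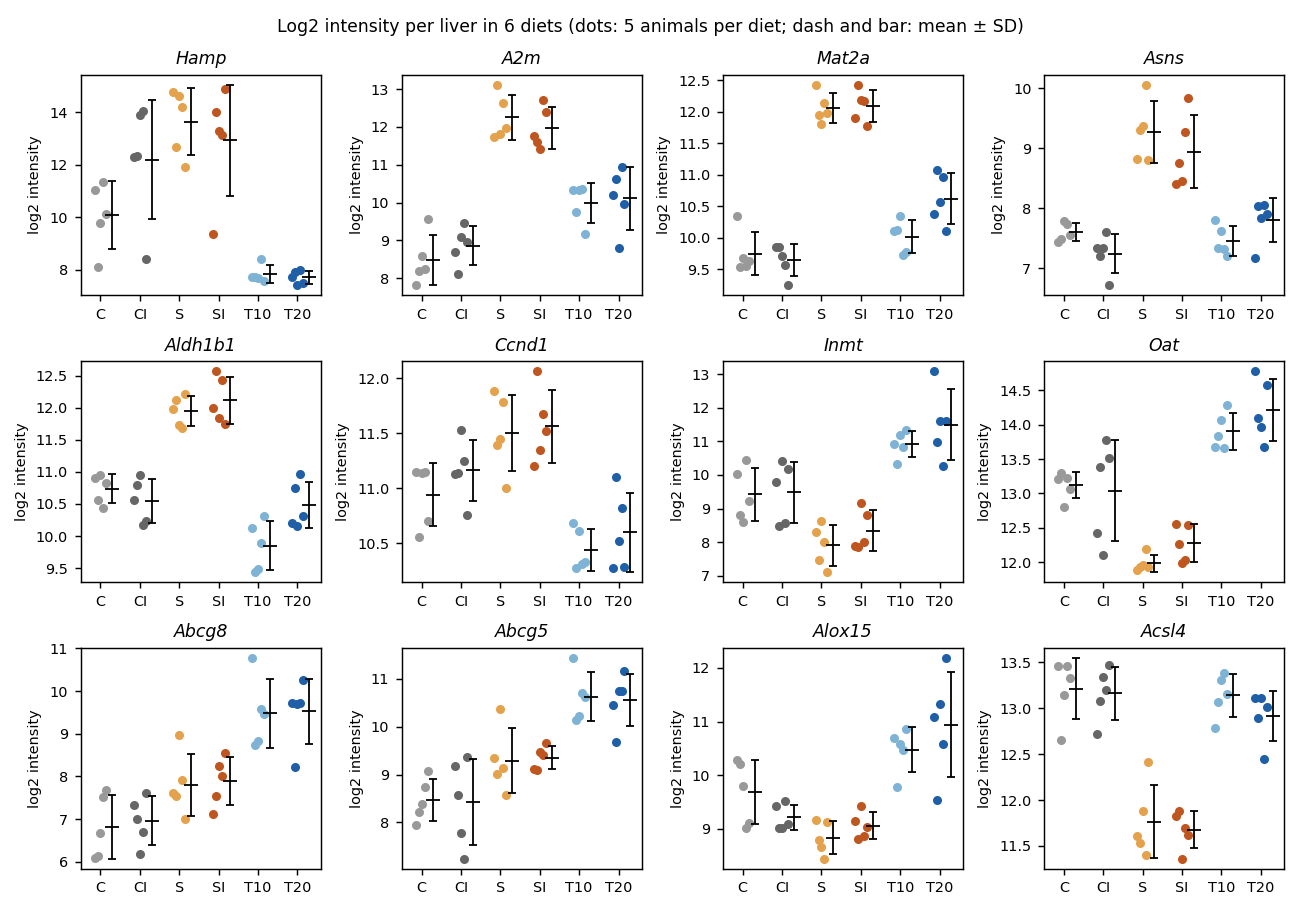
Log2 intensity of 12 genes in every liver of the 6 diets, with 5 dots per diet and the mean ± SD beside them; the axes differ between panels and do not start at 0. In the *Hamp* panel the 5 T20 livers sit between 7.41 and 8.0 and the SI livers between 9.35 and 14.90, and in the *Oat* and *Inmt* panels both tofu diets sit above both soy protein diets.

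The animals on T10 and S gave a second look, at tofu with casein against soy protein. Their arrays are not shared with T20 and SI, although all 30 arrays share the spread of the fit. The doses differ: T10 holds 100 g/kg of protein from casein, so tofu and casein differ from S together and cannot be told apart. Isoflavone is added to neither diet, but tofu brings its own. It is therefore not matched between T10 and S as it is between T20 and SI. In that comparison 534 of 10699 genes differed (4.99%), 222 higher (2.07%) and 312 lower (2.92%) with T10. Of the 431 genes, 417 had the same sign there (96.8%), 177 of the 185 higher and 240 of the 246 lower. The share of equal signs over all tested genes was not counted, so this figure stands without a baseline. Both comparisons called 172 genes, all 172 in the same direction, which is 39.9% of the genes of T20 against SI and 32.2% of those of T10 against S. As probe sets 789 differed between T10 and S (4.24%), 368 higher (1.98%) and 421 lower (2.26%). T10 replicates 3, 4 and 5 had the highest GAPDH ratios, and without them 164 probe sets passed, 70 higher and 94 lower. Without S replicate 2 the higher ones numbered 237.

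*Hamp* measured 7.72, 7.73, 7.67, 8.41 and 7.57 with T10 and 14.79, 12.67, 14.63, 14.21 and 11.91 with S, a difference of -5.82 ± 0.87 (adjusted p = 0.000155, limma). *Inmt* had 3.02 ± 0.45, *Oat* 1.92 ± 0.23, *Abcg8* 1.68 ± 0.42, *Abcg5* 1.33 ± 0.35, *Alox15* 1.64 ± 0.31 and *Acsl4* 1.38 ± 0.18 in T10 minus S. *A2m* had -2.27 ± 0.37, *Mat2a* -2.05 ± 0.18, *Aldh1b1* -2.10 ± 0.19 and *Asns* -1.82 ± 0.24. All of these passed in T10 against S. Of the genes of fat synthesis, *Acaca* had -0.15, *Tkt* -0.26, *Pklr* -0.15 and *Fasn* 0.00 there, none of which passed. Of the 26 tested genes of that list 1 fell and 3 rose, among them *Me1* (0.81 ± 0.19, adjusted p = 0.00969, limma). *Rgs5* had 0.08 ± 0.13, *Cdkn1a* -0.55 ± 0.43 and *Sesn2* -0.16 ± 0.19, which did not pass. Casein alone often stood on the same side of S as T10. This held for *Hamp* (C 10.08, S 13.64), *A2m* (C 8.49, S 12.25), *Mat2a* (C 9.75, S 12.06) and *Inmt* (C 9.43, S 7.90). It also held for *Oat*, *Alox15*, *Acsl4*, *Aldh1b1* and *Asns*, but not for *Abcg8* (C 6.82, S 7.80) and *Abcg5* (C 8.47, S 9.29).

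The difference between the 2 comparisons was tested directly, and by limma 0 probe sets passed at an adjusted p under 0.05 (1276 of 18625 at an unadjusted p under 0.05, 6.85%). So none of these genes was shown to differ between them. *Rgs5* had a difference between the comparisons of 0.83 ± 0.18 (adjusted p = 0.329, limma) and *Acaca* of -0.59 (adjusted p = 0.702, limma).

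**Figure D4:**
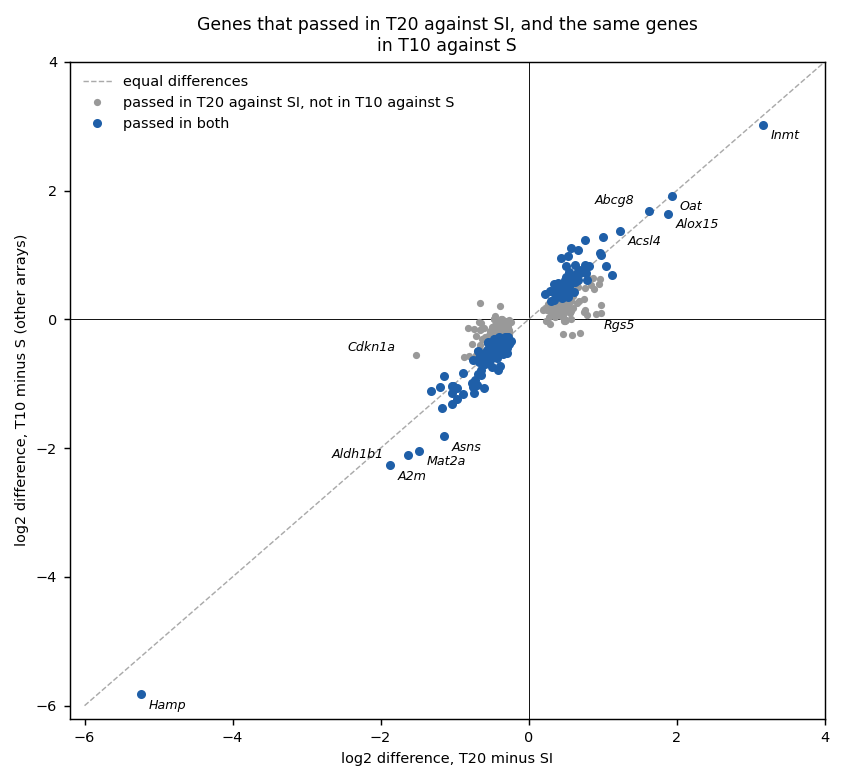
Each point is 1 of the 431 genes that differed between T20 and SI, with that log2 difference on the horizontal axis and the log2 difference T10 minus S, from other animals, on the vertical axis. Blue points, 172 genes, passed in both and grey points did not pass in T10 against S; the dashed line marks equal differences, and 417 points lie in the quadrants of equal sign.

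Against S, which shares the diet protein with SI, values that share arrays with the main comparison stand side by side only. T20 minus S was -5.94 for *Hamp*, 3.61 for *Inmt*, -1.44 for *Mat2a* and 1.73 for *Abcg8*, and SI minus S was -0.70, 0.44, 0.03 and 0.10 for the same genes. Between SI and S, 0 of 18625 probe sets passed by limma, with 664 (3.57%) at an unadjusted p under 0.05. T20 against S gave 391 genes (3.65%).

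The casein diet places the 2 soybean diets on a common scale. For 319 of the 431 genes the C mean lay between those of T20 and SI. The C mean was nearer to T20 than to SI for 110 of the 185 higher genes and for 170 of the 246 lower genes. The 431 genes were picked for a gap between T20 and SI, which by itself favours a C mean inside that gap. The same shares over all tested genes were not counted, nor were those with CI, the casein diet with isoflavone. These counts therefore stand without a baseline and only describe where the C means lay. Examples near T20 were *Acsl4* (C 13.21), *Asns* (C 7.60, T20 7.80, SI 8.94) and *Aldh18a1* (C 7.83, T20 7.79, SI 8.83). Others went past casein, such as *Oat* and *Inmt*, which were above C with T20 and below it with SI. *Abcg5* and *Abcg8* were above C with both diets.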

How the data were processed

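Liver RNA of 30 rats was measured on 1-colour Affymetrix arrays, 1 per animal. The authors deposited linear intensities, which the SuperNORM service had brought to 1 scale, per the labels; no label states the reference level of that scale. Of 31099 probe sets 57 controls were left out. Values below 16 were set to 16, and log2 was taken of the deposited intensity; 3987 of the values lay at or below the floor. Tested were probe sets with a mean above the 40th percentile (log2 level 7.388, intensity 167.6), 18625 in all. Limma 3.58.1 in R 4.3.3 was fitted to the diet means of all 30 arrays, with a variance trend, 24 residual degrees of freedom, two-sided tests and Benjamini-Hochberg adjustment within each of 5 comparisons. The fit was tested on simulated data.

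Symbols came from the platform annotation: 20832 probe sets have 1 symbol, 436 several and 9831 none, and 20764 of the first matched a current gene record. The tested probe set with the highest mean stood for a gene; 115 of the probe sets that passed have no single symbol and were not named. Named were the 15 most higher and 15 most lower genes that passed, up to 4 passing members of each list by smallest p, and a fixed set of genes; 74 genes met this rule. Left unnamed in the results, but counted, are 5 passing list members that single arrays decide, as chosen after the values were seen. List members given with values that did not pass, and those named as outside the rule, were also chosen then. The diets compared, the gene lists and the rule were chosen with earlier results of these data known. Of 655 list entries 588 were on the array. Promoter windows of 10 of 11 chosen genes came from RefSeq, build GRCr8.

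Alternatives were median centring, quantile normalization, scaling to equal median and spread, floors of 1 and 64, no filter or a 60th percentile filter, no variance trend, only the diets compared, a block for the replicate number, array weights, a threshold of 0.01, C and CI replicate 3 left out, and each array left out. Leaving out T10 replicates 3, 4 and 5 was chosen after seeing the data. No label says what the replicate numbers mark, and they were not treated as pairs in the main fit. Deviations of same-numbered T20 and SI arrays correlated at -0.085 to 0.168, which cannot decide whether such animals shared a cage or day. Python 3.11.15 with matplotlib 3.10.9 drew the figures. The authors' table of their own tests was not used here.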

Additional observations from a re-analysis of the deposited data

Results flagged for a closer look

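The 5 T20 and the 5 SI values of each of 74 named genes made 148 groups of 5 livers. In 8 of them a single liver stood apart from the rest by a gap of more than 0.71 of the group's range. Chance gives about 1 in 20, and 8 of 148 lies near that share. *Abcg8*, of the sterol exporter, measured 8.23 in T20 replicate 2, below the range of 9.69 to 10.27 in the others. *Asns*, asparagine synthetase, measured 7.17 in T20 replicate 1, against 7.84 to 8.06 in the remaining livers of that diet. *Vnn1*, a pantetheinase, measured 9.58 in T20 replicate 5, against 10.24 to 10.48 in the rest of that diet. *Cpt1a*, the mitochondrial fatty acid gate, measured 14.16 in T20 replicate 5, against 12.77 to 13.11 in the rest of that diet. *Onecut1*, a hepatocyte transcription factor, measured 11.16 in T20 replicate 4, against 8.69 to 9.07 in the rest of that diet. *Mcm7*, a replication helicase subunit, measured 9.76 in T20 replicate 3, against 9.43 to 9.52 in the rest of that diet. *Rhob*, a small GTPase, measured 11.3 in SI replicate 3, where the others had 11.53 to 11.61. *Cyp3a23-3a1*, a steroid and drug hydroxylase, measured 13.77 in SI replicate 1, against 13.45 to 13.54 in the rest of that diet. What set these livers apart was not tested.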

How the results depend on the processing

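Of 653 probe sets that differed between T20 and SI, 36 passed with only the diets compared in the fit, among 39 in all (19 higher, 20 lower), where fewer arrays estimate the spread, and 138 passed at a threshold of 0.01 (58 higher, 80 lower). Median centring gave 144 higher and 649 lower. Leaving out 1 array gave 228 to 1026, with 115 to 525 higher and 110 to 501 lower. For T10 against S, 336 of 789 passed at 0.01 (147 higher, 189 lower) and 164 without T10 replicates 3, 4 and 5 (70 higher, 94 lower); leaving out 1 array gave 547 to 746, with 237 to 355 higher and 297 to 413 lower. The other alternatives kept these counts within 1.5 times. The replicate block gave 970 for T20 against SI and 1034 for T10 against S. No label says what a shared number marks. Among the T20 and T10 arrays, only T20 replicate 5 correlated best with the array of its own number in SI or S. Over the named genes, 1475 of 1765 values under alternatives kept direction and side of the threshold, 263 no longer passed, 7 newly passed and 20 turned in sign, and 30 of the 62 that passed did so whichever array was left out. All that turned had not passed: *Pnpla3* was -0.0071 under quantile normalization, -0.0473 under median centring, -0.0141 under equal median and spread and -0.0529 with array weights, *Fmo1* -0.0503 under quantile normalization, -0.0701 under median centring and -0.0369 with array weights. Over the arrays left out 1 at a time, *Pnpla3* ranged from -0.18 to 0.36, *Fmo1* from -0.0816 to 0.10 and *Onecut1* from -1.08 to 0.43. The cause was not tested. The number of arrays limits the precision, and T20 values of *Hamp* lie near the dim end of the scale.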
